A study of Mus musculus with 139 samples.

Results

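Gria1, Wnt2, Fgfr4, Glp1r and Lef1 are 5 of the 22180 genes measured in the lungs of mice given multi-walled carbon nanotubes (MWCNT) or crocidolite asbestos. They were chosen by their measured levels, because each was lower after 80 µg MWCNT or after crocidolite at 6 months, so their 6-month differences from control are a description and carry no test. The set was labelled as receptors, but it holds 3 receptors (Gria1, Fgfr4 and Glp1r), 1 secreted ligand (Wnt2) and 1 transcription factor (Lef1). The 1- and 12-month lungs did not enter the choice, and the tests against control below are made there.

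The genes belong to separate signalling systems. Wnt2 is a secreted Wnt protein made by mesenchymal cells of the lung. Wnt proteins bind Frizzled receptors with an LRP co-receptor and stabilise beta-catenin, which enters the nucleus and acts with TCF and LEF factors such as Lef1. Lef1 is also a factor of developing lymphocytes. Fgfr4 is a tyrosine kinase receptor for fibroblast growth factors that works with Fgfr3 in forming alveolar septa. Glp1r is the class B receptor for the gut hormone GLP-1, with high expression in mouse lung. Gria1 encodes the GluA1 subunit of AMPA receptors, glutamate-gated channels best known from excitatory synapses.

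Male mice, given as C57BL/J6 and 7 weeks old in the labels, were dosed once under anaesthesia by pharyngeal aspiration: a small volume was placed behind the tongue and drawn in with the breath. The liquid was dispersion medium (DM, phosphate-buffered saline to which glucose, mouse serum albumin and a lung lipid had been added), MWCNT suspended in DM at 1, 10, 40 or 80 µg, or crocidolite suspended in DM at 120 µg, and lung RNA was taken 1, 6 or 12 months later. The 139 arrays, 2 of them from the same mouse, covered 18 groups of 8 mice, apart from smaller ones of 5 (crocidolite, 1 month), 6 (1 µg, 12 months) and 7 (crocidolite, 12 months). Whole lung was used, so a lower value can come from fewer cells of a type or from less RNA per cell, which cannot be told apart. All values are log2 array values, and each of the 5 genes was read by a single array feature. Array values of different genes have no common scale, so levels are compared only between groups of mice and never between genes.

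Arrays resembled the rest of the series to different degrees. The median correlation of an array with the others ranged from 0.9184 to 0.9741, and 5 arrays lay below the limit of 0.9281 used here to set arrays apart: replicates 4 and 6 of 1 µg at 6 months, replicate 6 of 10 µg at 1 month, replicate 2 of DM at 12 months and replicate 4 of crocidolite at 1 month. The last of these is 1 of only 5 lungs in its group, so results for it are given with and without it. The titles of 38 arrays in 15 groups carry the word replacement, whose meaning is not given, among them 3 of the 5 crocidolite arrays at 1 month and 5 of the 7 at 12 months. Results were also computed separately for arrays with and without it.

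RefSeq records of assembly GRCm38.p6 gave start sites for 4 of the 5 genes, Wnt2, Fgfr4, Glp1r and Lef1. The 150 bases just before the start are shown because these genes moved together between lungs (below). They are written 5′ to 3′ on the gene's strand, with capitals marking the GC box GGGCGG or its reverse complement CCGCCC, and Lef1 is shown at the first of its 4 listed starts. Wnt2 lies on the minus strand at chr6:18030446-18030595, Fgfr4 on the plus strand at chr13:55152668-55152817, Glp1r on the plus strand at chr17:30901717-30901866 and Lef1 on the plus strand at chr3:131110147-131110296.
Wnt2: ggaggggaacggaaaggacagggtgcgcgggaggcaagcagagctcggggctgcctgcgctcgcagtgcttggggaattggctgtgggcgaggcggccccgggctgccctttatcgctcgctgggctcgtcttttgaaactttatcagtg
Fgfr4: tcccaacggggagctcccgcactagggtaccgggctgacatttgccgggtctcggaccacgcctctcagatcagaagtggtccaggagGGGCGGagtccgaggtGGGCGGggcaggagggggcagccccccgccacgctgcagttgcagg
Glp1r: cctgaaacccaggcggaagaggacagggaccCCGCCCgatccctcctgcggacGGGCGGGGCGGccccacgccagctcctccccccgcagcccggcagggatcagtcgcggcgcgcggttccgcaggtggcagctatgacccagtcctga
Lef1: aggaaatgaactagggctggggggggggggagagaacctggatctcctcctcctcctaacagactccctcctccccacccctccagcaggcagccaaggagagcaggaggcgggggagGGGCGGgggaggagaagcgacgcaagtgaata

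The Fgfr4 window holds 2 GC boxes, the Glp1r window 3 (the last pair sharing a base), the Lef1 window 1 and the Wnt2 window 0. A GC box stood in 28.6% of the 32851 promoter entries of mouse genes in a window of this length. Over the 250 bases before the start, G and C made up 63.6% in Wnt2, 64.0% in Fgfr4, 73.2% in Glp1r and 66.4% in Lef1, against a median of 52.4% over all entries, of which 27.0% exceeded 60%. The other Lef1 starts had 66.4%, 50.8% and 44.8%, so a high share does not hold for all of them. The letters CTTTGAT, or CTTTGTT, or CTTTGAA, or CTTTGTA, forms of the site bound by TCF and LEF factors, were searched on both strands of the same 250 bases. They gave 0 matches in the windows above and 1 match, CTTTGTA, before the fourth Lef1 start, while 14.8% of all entries held at least 1. This describes only the letters in these windows.

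At 6 months, where the genes were chosen, the DM lungs had the highest mean of all 18 groups for each of the 5 genes. For Gria1 the DM lungs ranged from 6.36 to 6.78 with a median of 6.54. Lungs given 80 µg MWCNT ranged from 4.84 to 6.45 with a median of 5.74, and crocidolite lungs from 5.00 to 5.96 with a median of 5.62. The crocidolite lungs thus lay wholly below DM, while the 80 µg lungs spread widely and reached into the DM range. The difference from DM was -0.81 ± 0.16 (log2 difference ± SE, n = 8 in each group) with 80 µg and -0.98 ± 0.16 with crocidolite.

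For Wnt2 at 6 months DM ranged from 5.89 to 6.54 (median 6.21), 80 µg from 5.33 to 6.01 (median 5.71) and crocidolite from 4.65 to 5.81 (median 5.27). The highest 80 µg lung passed the lowest DM lung, and the crocidolite lungs lay below all DM lungs. The differences were -0.53 ± 0.15 and -0.91 ± 0.15. Fgfr4 lay 0.60 ± 0.14 below DM with 80 µg and 0.71 ± 0.14 below with crocidolite, where again no lung reached the DM range of 6.90 to 7.69. Glp1r lay 0.48 ± 0.21 and 0.89 ± 0.21 below DM, and crocidolite lungs (8.83 to 9.96) did not reach the DM range of 10.05 to 10.57. Lef1 lay 0.54 ± 0.14 below DM with either fibre, and there it was the 80 µg lungs (5.71 to 6.36) that stayed below all DM lungs (6.39 to 7.12). Over all genes, 0.131% were called lower with 80 µg and 2.23% with crocidolite at 6 months, values from which nothing is read here because that contrast chose the genes.

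The 6-month differences are taken from the DM lungs of 6 months, whose levels entered the choice. DM at 6 months stood above DM at 1 month by 0.38 for Gria1, 0.42 for Wnt2, 0.37 for Fgfr4, 0.38 for Glp1r and 0.16 for Lef1, and above DM at 12 months by 0.21, 0.37, 0.43, 0.62 and 0.44 in the same order. All 10 of these differences are positive, and they are given without a test because the same DM lungs took part in the choice. Choosing genes that were lower than in these DM lungs favours high values in them. The signs are therefore not read as a result, and the same holds for any group set against these lungs. The 1 µg lungs at 6 months, the lowest dose, also lay below these DM lungs, by 0.25 for Gria1, 0.40 for Wnt2, 0.42 for Fgfr4, 0.23 for Glp1r and 0.25 for Lef1. Replicates 4 and 6 of that group are arrays of low correlation, and over its other 6 lungs the differences were -0.15 for Gria1, -0.23 for Wnt2, -0.22 for Fgfr4, 0.03 for Glp1r and -0.08 for Lef1. The DM lungs of 12 months and of 1 month, which did not enter the choice, differed in 0 of the 5 genes (limma adjusted p from 0.437). Of all genes 1.12% were called in either direction. An unadjusted p under 0.05 was found for 0 of the 5 and for 11.7% of all genes.

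**Figure D1:**
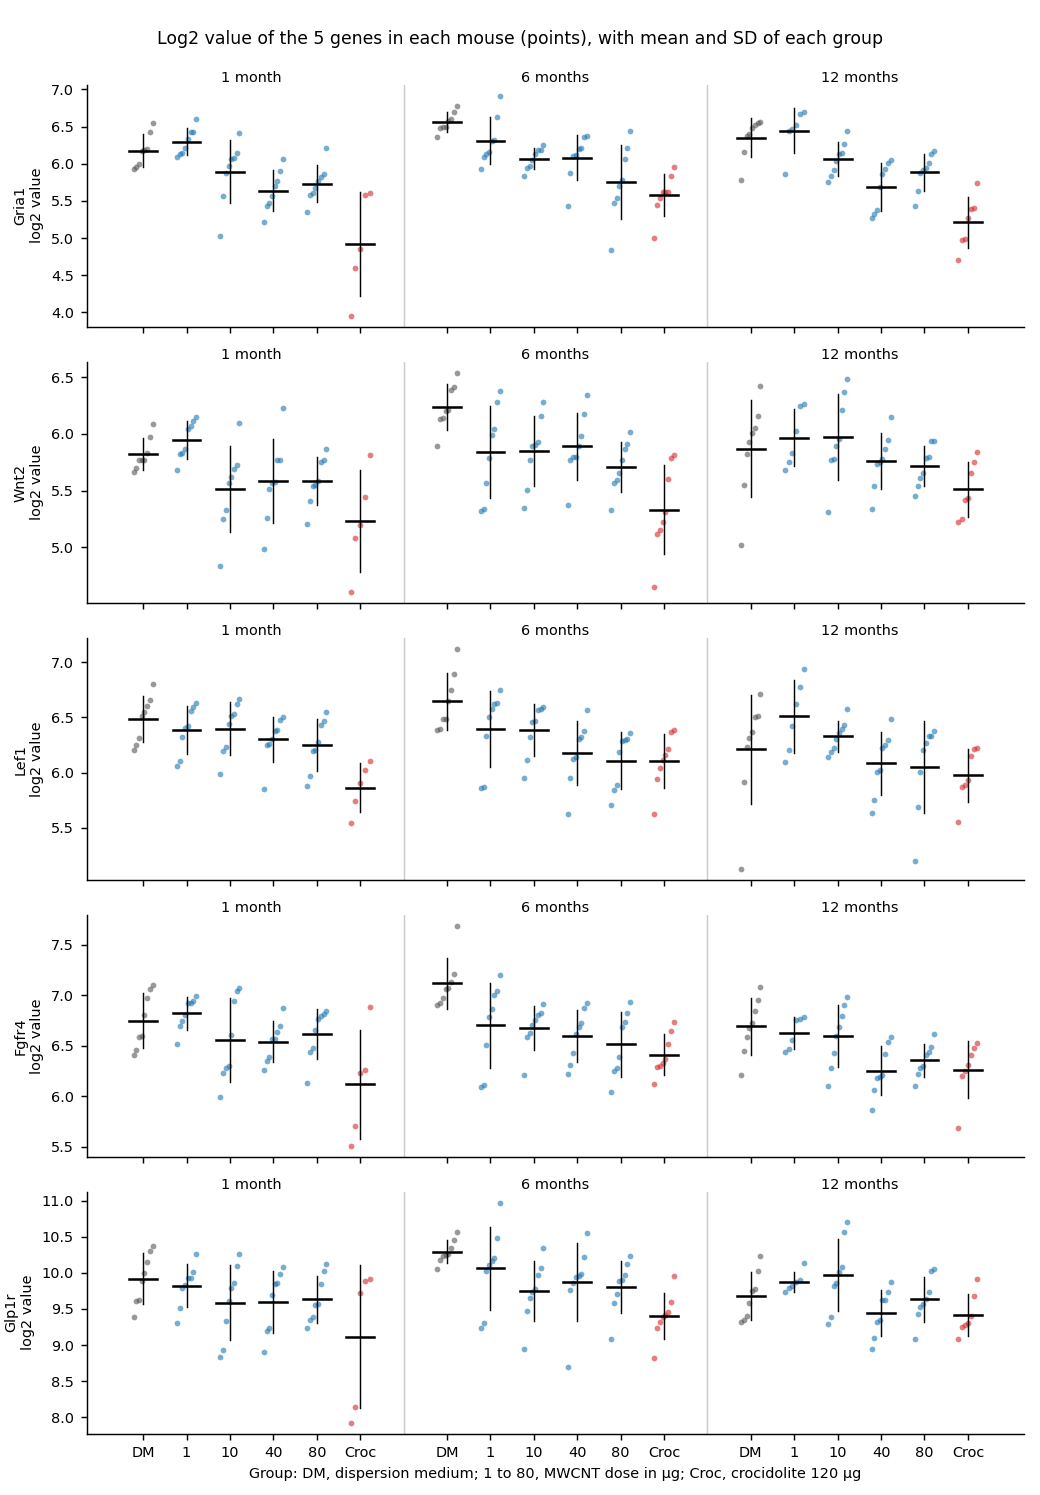
Log2 array value of each gene (vertical axes) in every mouse, by group (horizontal axis: DM, MWCNT dose in µg, crocidolite at 120 µg), at 1, 6 and 12 months; points are mice, horizontal bars group means and vertical bars the SD. DM at 6 months is the highest mean in each panel and crocidolite at 1 month the lowest, and the 5 crocidolite lungs of 1 month spread from 7.93 to 9.91 for Glp1r.

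Crocidolite at 1 month was the group with the lowest mean of all 18 for each of the 5 genes, and all 5 passed the test as lower than DM, while 2.83% of all 22180 genes were called lower. Gria1 showed the largest difference. Its 5 crocidolite lungs read 3.96, 4.60, 4.86, 5.58 and 5.61, and DM lungs ranged from 5.93 to 6.55 with a median of 6.18. All 5 lungs lay below every DM lung, and the mean was 2.39-fold lower (log2 difference -1.26 ± 0.18, limma adjusted p = 4.07e-08).

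Wnt2 read 4.60, 5.08, 5.20, 5.45 and 5.82 in the crocidolite lungs against 5.66 to 6.08 in DM. The highest crocidolite lung lay inside the DM range, and the difference was -0.59 ± 0.17 (adjusted p = 0.0212). Lef1 read 5.54, 5.74, 5.90, 6.02 and 6.11 against 6.20 to 6.81, so that no crocidolite lung reached DM, with a difference of -0.62 ± 0.16 (adjusted p = 0.00654).

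Fgfr4 read 5.51, 5.70, 6.23, 6.26 and 6.89 against 6.41 to 7.10, a difference of -0.63 ± 0.16 (adjusted p = 0.00596). Glp1r read 7.93, 8.15, 9.72, 9.88 and 9.91 against 9.38 to 10.37, a difference of -0.80 ± 0.24 (adjusted p = 0.0231). The SEs and p-values rest on a spread shared by all groups. The SD of the 5 crocidolite lungs was 0.99 for Glp1r, 0.70 for Gria1 and 0.54 for Fgfr4, against a shared 0.42, 0.32 and 0.29. It was 0.45 against 0.30 for Wnt2 and 0.23 against 0.28 for Lef1. For all but Lef1 the SEs thus understate the spread of this group. Replicates 4 and 5 held the low Glp1r and Fgfr4 values, and the other 3 lungs lay inside the DM range of Glp1r. The same pair of lungs was also the lowest for Gria1 and Wnt2, whereas for Lef1 replicate 4 was the highest of the 5.

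These calls were recomputed without some of those lungs and in other settings. Without the 5 arrays of low correlation, which removes replicate 4, 2 genes stayed lower: Gria1 (-1.02, limma adjusted p = 2.15e-05) and Lef1 (-0.68, 0.00191), and 1% of all genes were then called lower. Wnt2 was then at -0.43 (0.171), Fgfr4 at -0.48 (0.0765) and Glp1r at -0.50 (0.297). Without replicate 5, 1 of the 5 genes passed. With only the compared groups in the fit, so that their own spread was used, 2 of the 5 genes passed. For these refits the share of all genes called is not given here, so their counts are not read as a result about these genes. Among arrays without the word replacement Gria1 was at -0.99 (adjusted p = 0.00907) and among arrays with it at -1.47 (0.00937). The other 4 genes passed in neither set, with negative differences in both. Both sets are small, as 3 of the 5 crocidolite and 4 of the 8 DM arrays carry the word. The share of all genes called in either set is not given here either.

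At 12 months Gria1 was again lower with crocidolite, and it was the only 1 of the 5 to pass the test, while 2.16% of all genes were called lower. The 7 crocidolite lungs ranged from 4.70 to 5.75 with a median of 5.27, and DM from 5.79 to 6.56 with a median of 6.44. All 7 lay below every DM lung, at 2.21-fold lower on average (-1.14 ± 0.16, limma adjusted p = 4.00e-08). Among arrays without the word replacement it was at -1.23 (3.58e-04) and among arrays with it at -1.02 (0.091). The word stands on 5 of the 7 crocidolite and 3 of the 8 DM arrays, so either set is small.

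The other 4 genes had negative differences at 12 months that did not pass: Fgfr4 -0.43 ± 0.15 (adjusted p = 0.0608), Wnt2 -0.36 ± 0.16 (0.182), Glp1r -0.26 ± 0.21 (0.614) and Lef1 -0.24 ± 0.15 (0.442). Fgfr4 ranged from 5.68 to 6.52 in crocidolite lungs and from 6.21 to 7.08 in DM, and Wnt2 from 5.23 to 5.84 against 5.02 to 6.42, so both overlapped. DM replicate 2, one of the arrays of low correlation, held the lowest Gria1, Wnt2, Fgfr4 and Lef1 values of its group. Without these arrays 3 of the 5 genes passed: Gria1 (-1.22, 2.33e-09), Fgfr4 (-0.50, 0.013) and Wnt2 (-0.48, 0.0274), and the share of all genes called lower was then 3.56%.

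The change of the crocidolite difference from 1 to 12 months, tested as an interaction, passed for 0 of the 5 genes, while 0.0541% of all genes were called in either direction. The interaction was 0.12 ± 0.24 for Gria1 and 0.54 ± 0.32 for Glp1r, the largest of the 5, with a 95% interval of -0.09 to 1.16. The lowest limma adjusted p was 0.807 (Lef1), and 0 of the 5 but 6.52% of all genes had an unadjusted p under 0.05. A smaller loss at 12 months than at 1 month was thus not shown for any of them, and the intervals leave room for one.

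**Figure D2:**
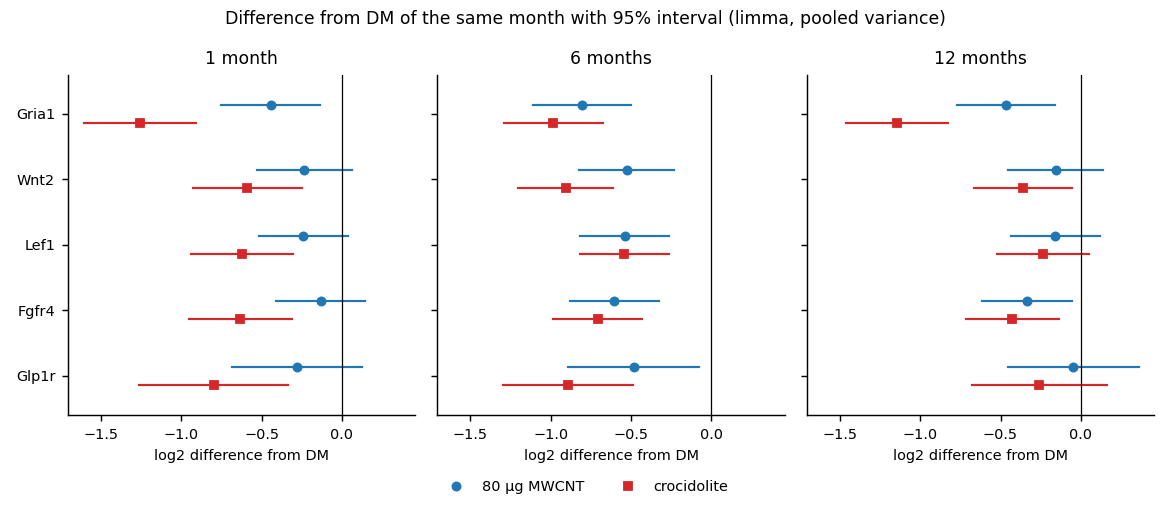
Log2 difference from DM of the same month (horizontal axis) for each gene, with points for 80 µg MWCNT, squares for crocidolite and bars for the 95% interval from the limma model, at 1, 6 and 12 months. Gria1 with crocidolite lies at -1.26, -0.98 and -1.14; the 6-month panel shows the contrasts that chose the genes.

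With MWCNT the genes were tested dose by dose against DM of the same month. At 80 µg and 1 month 0 of the 5 passed (limma, 0.108% of all genes called lower). Gria1 was the 1 with an unadjusted p under 0.05, as had 10.1% of all genes in either direction. Gria1 ranged from 5.35 to 6.21 with a median of 5.72, and 7 of 8 lungs lay below every DM lung, yet the difference of -0.44 ± 0.16 had an adjusted p of 0.163. The other 4 differences ran from -0.28 ± 0.21 (Glp1r) to -0.13 ± 0.14 (Fgfr4).

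At 80 µg and 12 months 0 of the 5 passed (limma, 0.018% of all genes called lower). Gria1 and Fgfr4 had an unadjusted p under 0.05, as had 10.8% of all genes in either direction. Gria1 ranged from 5.43 to 6.17 against 5.79 to 6.56 in DM, with a difference of -0.47 ± 0.16 (adjusted p = 0.213; 95% interval -0.77 to -0.16). Fgfr4 was at -0.34 ± 0.14 (0.372) and Glp1r at -0.05 ± 0.21 (0.958). The change of the 80 µg difference from 1 to 12 months passed for 0 of the 5 (0.00902% of all genes in either direction). The interaction was -0.02 ± 0.22 for Gria1, and 0 of the 5 but 7.74% of all genes had an unadjusted p under 0.05.

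At 40 µg 0 of the 5 passed at 1 month (0.018% of all genes called lower) and 0 at 12 months (0.00902%). Gria1 lay further from DM here than at 80 µg, at -0.54 ± 0.16 (limma adjusted p = 0.104) at 1 month and -0.67 ± 0.16 (0.0572) at 12 months. It was the 1 of the 5 with an unadjusted p under 0.05 at 1 month, where 6.47% of all genes had one in either direction. Fgfr4 joined it at 12 months (-0.44 ± 0.14, 0.187), where 11.8% of all genes had one. At 40 µg and 12 months Gria1 (-0.75, 0.00824) and Fgfr4 (-0.51, 0.0439) passed once the arrays of low correlation were left out. The share of all genes called in that fit is not given here. At 10 µg 0 of the 5 passed at 1 month (0.00451% of all genes called lower) and 0 at 12 months (0%). An unadjusted p under 0.05 at 10 µg and 1 month was found for 1 of the 5 and for 4.59% of all genes. At 1 µg 0 passed at 1 or at 12 months (0% at either time), with 0 at an unadjusted p under 0.05. Of all genes, 1.97% at 1 month and 2.68% at 12 months had such a p at 1 µg.

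Read over dose, Gria1 fell with MWCNT at both times. Across DM and the 4 doses, the change per unit of log2(dose + 1), with dose in µg, was -0.10 ± 0.02 per unit at 1 month (limma adjusted p = 6.14e-04) and -0.11 ± 0.02 at 12 months (0.00154). Its means at 1 month were 6.18 in DM, 6.30 at 1 µg, 5.89 at 10 µg, 5.64 at 40 µg and 5.73 at 80 µg, so the means at 10, 40 and 80 µg lay below DM and that at 1 µg did not. Gria1 was the 1 of 5 genes called lower with dose at each time, where 0.473% of all genes were called lower at 1 month and 0.613% at 12 months.

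The slopes of the other genes were negative at both times and did not pass, with Fgfr4 at 12 months the nearest (-0.06 ± 0.02, adjusted p = 0.0716) and Wnt2 next at 1 month (-0.05 ± 0.02, 0.147). Fgfr4 (0.0129) and Lef1 (0.0178) passed at 12 months along with Gria1 when the arrays of low correlation were left out. For that fit, too, the share of all genes called is not given. Among arrays without the word replacement Gria1 had a slope of -0.07 at 1 month (0.104) and -0.11 at 12 months (0.00699), and among arrays with it -0.10 at 12 months (0.759).

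At 6 months the slope over 1, 10 and 40 µg passed for 0 of the 5 genes (limma, 0% of all genes called lower). These groups were not themselves used in the choice. An unadjusted p under 0.05 was found for 0 of the 5 and for 7.44% of all genes. The slope was -0.05 ± 0.04 for Gria1 (limma adjusted p = 0.752) and 0.01 ± 0.03 for Wnt2 (0.964). Without the arrays of low correlation the slopes were -0.08 for Gria1, -0.03 for Wnt2, -0.07 for Fgfr4, -0.11 for Glp1r and -0.09 for Lef1, and 0 of the 5 passed (limma adjusted p from 0.603), with 4 at an unadjusted p under 0.05. The share of all genes with such a p in that fit is not given here, so this count is not read as a result about these genes.

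**Figure D3:**
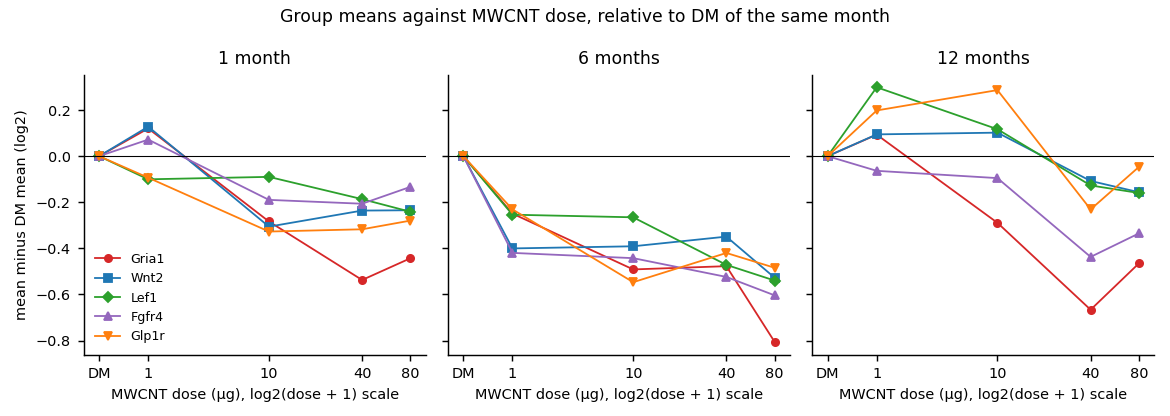
Mean of each group minus the DM mean of the same month (vertical axis, log2) against MWCNT dose (horizontal axis, µg, on a log2 of dose plus 1 scale), a line for each gene. At 6 months all 5 lines lie below 0 from 1 µg on, a group of which 2 lungs are arrays of low correlation (Glp1r is at 0.03 there without them), whereas at 1 and 12 months Gria1 lies above 0 at 1 µg and at -0.54 and -0.67 at 40 µg.

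Crocidolite at 120 µg and MWCNT at 80 µg were compared directly, although the masses differ. Gria1 was higher with 80 µg MWCNT than with crocidolite by 0.81 ± 0.18 at 1 month (limma adjusted p = 0.033; 0.0361% of all genes were called higher) and by 0.68 ± 0.16 at 12 months (0.013; 0.149%). Its 80 µg lungs of 1 month started at 5.35 and the crocidolite lungs ended at 5.61, a small overlap. At 12 months the ranges were 5.43 to 6.17 and 4.70 to 5.75. The other 4 genes had positive differences that did not pass, from 0.35 ± 0.17 (Wnt2) to 0.52 ± 0.24 (Glp1r) at 1 month and from 0.08 ± 0.15 (Lef1) to 0.21 ± 0.21 (Glp1r) at 12 months. At 1 month 0 of the 5 genes passed once the arrays of low correlation were left out. The share of all genes called in that fit is not given here.

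Ordered over the 18 groups, the means of a gene formed a near-continuous run. The range of means was 1.64 for Gria1, 1.17 for Glp1r, 1.01 for Wnt2, 1.00 for Fgfr4 and 0.78 for Lef1. Of the 17 steps between neighbouring means, 1 exceeded the SD between mice of one group for Gria1 (0.32) and 1 for Fgfr4 (0.29), and 0 did for Wnt2 (0.30), Glp1r (0.42) and Lef1 (0.28). Sorting 18 means makes most steps small in any case, so these counts do not tell whether groups differ. For Gria1 the lowest 3 groups were the crocidolite groups of 1, 12 and 6 months.

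Glutamate receptor genes other than Gria1 were read from a list of AMPA subunits and the proteins that carry or anchor them, of which 19 were measured. For this and the later lists, of all 22180 genes 628 were lower and 649 higher with crocidolite at 1 month, and 479 and 955 at 12 months. With 80 µg the numbers were 24 and 374 at 1 month, and 4 and 35 at 12 months. List counts are a description and were not tested against these numbers. With crocidolite 3 of 19 were lower and 0 higher at 1 month, and likewise at 12 months: Gria1, Gria3 (another pore subunit) and Gsg1l (an auxiliary subunit). Gria3 was at -0.57 ± 0.14 (limma adjusted p = 0.00346) at 1 month and -0.53 ± 0.13 (0.00208) at 12 months. Gsg1l was at -0.66 ± 0.18 (0.00833) and -0.80 ± 0.16 (1.82e-04), and Gria2 at 0.42 ± 0.22 (0.341) and -0.05 ± 0.20 (0.953). Leaving out the arrays of low correlation, 1 of 19 passed at 1 month (Gria1) and 3 of 19 at 12 months. Of 19 other glutamate receptor genes, 0 passed at either time in the same limma fit. With 80 µg 0 of the 19 AMPA genes passed at 1 or 12 months.

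Among 19 Wnt ligands, 2 were lower with crocidolite at 1 month, Wnt2 and its relative Wnt2b, and 0 were higher. Wnt2b had the larger difference, at -1.22 ± 0.24 (limma adjusted p = 1.07e-04), and kept it without the arrays of low correlation (-1.17, 0.00104). Wnt5a, a ligand of the beta-catenin-independent branch, was at 0.08 ± 0.14 (0.856). At 12 months 0 of 19 passed, with Wnt2b at -0.57 ± 0.22 (0.0998). With the arrays of low correlation left out, 1 of 19 passed at each time.

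Of 21 Wnt receptors and co-receptors, 3 were lower with crocidolite at 1 month. They were Reck (-0.84 ± 0.12, limma adjusted p = 3.50e-08), which with Adgra2 senses Wnt7 proteins, Tspan12 (-0.52 ± 0.09, 1.55e-05), a Frizzled-4 partner in vessels, and Fzd4 itself (-0.43 ± 0.14, 0.0371). At 12 months 3 were lower, Lgr5 (-0.77 ± 0.17, 6.68e-04), Reck (-0.45 ± 0.11, 0.0026) and Fzd1 (-0.28 ± 0.09, 0.0453). Reck (-0.45 ± 0.10, 0.00345) and Tspan12 (-0.29 ± 0.08, 0.0305) were also lower with 80 µg at 1 month, where Wnt2 and Lef1 did not pass. Fzd4 at 1 month was at -0.32 (0.26) once the arrays of low correlation were left out.

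Lef1 was the 1 of 8 measured TCF and LEF factors and partners that was lower with crocidolite at 1 month, and Ctnnb1, which encodes beta-catenin, was higher (0.19 ± 0.06, limma adjusted p = 0.0431). At 12 months Ctnnb1 was higher (0.25 ± 0.06, 0.00138) and 0 of the 8 were lower. Of 17 Wnt inhibitors, Sfrp1, which binds Wnt proteins outside the cell, was higher with 80 µg at 1 month (0.94 ± 0.21, 0.00196) and with crocidolite at 1 month (1.05 ± 0.24, 0.00132) and 12 months (0.67 ± 0.22, 0.0399), while 0 were lower. Ctnnb1 at 1 month was at 0.20 (0.068) and Sfrp1 at 12 months at 0.58 (0.079) with the arrays of low correlation left out, where 1 of 17 inhibitors was lower at 12 months, Apcdd1 (-0.55, 0.0388).

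Of 16 genes often used as Wnt targets, which include Lef1, 2 were lower and 1 higher with crocidolite at 1 month, and 3 lower and 2 higher at 12 months. Axin2, the most general of these targets, was at -0.29 ± 0.13 (limma adjusted p = 0.23) at 1 month and was lower at 12 months (-0.52 ± 0.12, 0.00154). Tnfrsf19 was lower at both times (-0.39 ± 0.12, 0.0315 and -0.51 ± 0.11, 5.11e-04). Cd44, an adhesion receptor also found on leukocytes, was higher with crocidolite at 1 month (0.67 ± 0.12, 9.15e-06) and 12 months (0.60 ± 0.11, 1.50e-05) and with 80 µg at 1 month (0.57 ± 0.10, 4.78e-05). Tnfrsf19 at 1 month was at -0.26 (0.309) when the arrays of low correlation were left out.

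Fgfr4 was the 1 of 16 FGF receptors, co-receptors and feedback genes that was lower with crocidolite at 1 month, and 0 were higher. Fgfr1 was at -0.09 ± 0.15 (limma adjusted p = 0.846), Fgfr3 at -0.29 ± 0.16 (0.356) and Fgfr2, the epithelial receptor for Fgf7 and Fgf10, at 0.26 ± 0.09 (0.0807). With 80 µg at 1 month 2 of the 16 were higher, Fgfr2 (0.32 ± 0.08, 0.0101) and Etv5 (0.36 ± 0.10, 0.0338), a transcription factor induced by FGF signals and also a type 2 cell gene. At 12 months 0 of the 16 passed with either fibre, and without the arrays of low correlation 2 were lower with crocidolite, Fgfr4 and Spred2 (-0.32, 0.0485). Of 22 FGF ligands, Fgf7 (-0.34 ± 0.10, 0.035) was lower and Fgf23 (0.67 ± 0.20, 0.0227) higher with crocidolite at 1 month, and Fgf10 (-0.56 ± 0.16, 0.0161) and Fgf12 (-0.87 ± 0.24, 0.0101) were lower at 12 months. Neither Fgf7 (-0.27, 0.186) nor Fgf23 (0.60, 0.1) passed at 1 month once the arrays of low correlation were left out, and nor did Fgfr4. In that fit 3 of the 22 ligands were lower with crocidolite at 12 months, Fgf7 (-0.28, 0.0458), Fgf10 (-0.65, 0.00249) and Fgf12 (-0.87, 0.00809).

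Glp1r was 1 of 4 genes lower among 18 class B hormone receptors and their accessory proteins with crocidolite at 1 month, and 0 were higher. The others were Calcrl (-0.48 ± 0.09, limma adjusted p = 9.19e-05), the receptor for adrenomedullin, its partner Ramp2 (-0.59 ± 0.16, 0.0125) and Vipr2 (-0.57 ± 0.16, 0.0106), a receptor for vasoactive intestinal peptide. Gipr, the receptor of the other incretin hormone, was at -0.06 ± 0.18 (0.926). At 12 months 2 were lower, Calcrl (-0.28 ± 0.08, 0.0258) and Vipr2 (-0.44 ± 0.14, 0.0366), and Glp1r did not pass. Without the arrays of low correlation 1 of the 18 passed at 1 month, Calcrl (-0.38, 0.00892). At 12 months 3 of the 18 were then lower, Calcrl (-0.30, 0.014), Ramp2 (-0.49, 0.017) and Vipr2 (-0.42, 0.0405), where 3.56% of all genes were. With 80 µg 0 of the 18 passed at 1 or 12 months.

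Markers of several lung cell types moved with the genes, and their part in the result was not tested. With crocidolite at 1 month 10 of 14 measured alveolar fibroblast markers were lower, 7 of 9 aerocyte markers (the large-netted capillary cells), 8 of 12 general capillary markers, 4 of 11 pericyte markers and 8 of 11 B cell markers, and 0 members of these lists were higher. T cell markers gave 2 lower and 1 higher of 14. At 12 months 11 of 14 alveolar fibroblast, 4 of 9 aerocyte, 8 of 12 capillary, 2 of 11 pericyte and 2 of 11 B cell markers were lower. Cardiac muscle markers, at 9 of 11 lower with a median difference of -1.13, and smooth muscle markers, at 6 of 9 lower with a median of -0.66, also moved at 12 months, where 1 of 11 and 0 of 9 had passed at 1 month. Type 2 epithelium gave 5 of 12 higher at 1 month and 7 of 12 at 12 months. Markers of lipid-laden and alveolar macrophages were higher, 10 of 13 at 1 month and 11 of 13 at 12 months. Of all 22180 genes, 628 were lower and 649 higher at 1 month, and 479 lower and 955 higher at 12 months. Without the arrays of low correlation the 1-month counts fell to 5 of 14 (alveolar fibroblasts), 3 of 9 (aerocytes) and 4 of 12 (capillaries). Pericyte and B cell counts fell to 0 of 11 and 4 of 11, and the macrophage count was 10 of 13. In the same order the 12-month counts rose to 12 of 14, 6 of 9, 9 of 12, 4 of 11 and 3 of 11. The share of all genes called lower moved in the same way, from 2.83% to 1% at 1 month and from 2.16% to 3.56% at 12 months. With 80 µg at 12 months 3 of 14 alveolar fibroblast, 1 of 9 aerocyte, 1 of 11 pericyte and 2 of 14 T cell markers were then lower, and 0.28% of all genes. In the capillary and B cell lists 0 were lower there.

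The mean log2 value over the alveolar fibroblast list ranged from 7.75 to 8.70 in crocidolite lungs of 1 month and from 8.64 to 8.98 in DM, and from 8.34 to 8.50 against 8.68 to 8.99 at 12 months. The aerocyte list ranged from 7.42 to 8.54 against 8.54 to 8.91 at 1 month. The T cell list, at 5.20 to 5.57 against 5.33 to 5.80, overlapped. With 80 µg at 1 month 0 markers of these fibroblast, aerocyte, capillary, pericyte and B cell lists passed the test, and 10 of 13 macrophage markers were higher. Over the MWCNT doses, where Gria1 fell, the trend was also lower for 2 of 14 alveolar fibroblast markers at 1 month and 7 of 14 at 12 months, and for 4 and 3 of 11 pericyte markers. It was higher for 11 and 7 of 13 macrophage markers at the same times. Of all genes, the dose trend was called in either direction for 3.03% at 1 month and 1.2% at 12 months. The lower calls made up 0.473% and 0.613% of all genes, and the rest of the calls were higher. The marker counts were not tested against these shares.

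The 5 genes also deviated together among mice of one group. For this the group mean was subtracted from each mouse, and the deviations were correlated over all mice (45, 48 and 45 at 1, 6 and 12 months). This removes the differences between groups that chose the genes. The 6-month mice of that choice stay among those tested, and no test was run without them. All 10 pairs had a positive correlation, from r = 0.25 for Wnt2 and Glp1r (rho 0.21) to r = 0.51 for Gria1 and Glp1r (rho 0.40). Gria1 and Fgfr4 followed at r = 0.50 (rho 0.43) and Wnt2 and Fgfr4 at 0.48 (rho 0.42). All 10 had an adjusted p under 0.05 in a two-sided permutation test within groups, adjusted over the 10 pairs, from 2.50e-05 to 0.014 for r and from 5.00e-05 to 0.0239 for rho. The smallest p the 100000 permutations can give is 1.00e-05.

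These correlations are read against those of other genes. The 95th percentile over all genes was r = 0.37 with Gria1, 0.38 with Wnt2, 0.48 with Fgfr4, 0.46 with Glp1r and 0.37 with Lef1, so that Gria1's correlations with Fgfr4, Glp1r and Lef1 lay above the 95th percentile of both genes. For 3 of the 10 pairs, Gria1 with Wnt2, Wnt2 with Glp1r and Glp1r with Lef1, r lay below that of both genes, and for the other 4 it lay between them. Without the 2 mice farthest from the median, r for Gria1 and Glp1r was 0.45 and for Wnt2 and Glp1r 0.26. Without the arrays of low correlation r ranged from 0.12 (Wnt2 and Glp1r) to 0.44 (Gria1 and Glp1r). Within months the pair of Gria1 and Fgfr4 had r = 0.62, 0.50 and 0.33 at 1, 6 and 12 months, and Wnt2 and Glp1r 0.50, 0.37 and -0.23. At 1 month all pairs were positive, from 0.23 (Wnt2 and Lef1) to 0.70 (Fgfr4 and Glp1r). At 12 months Fgfr4 and Glp1r were at 0.06 and Glp1r and Lef1 at 0.02. The remaining pairs ran from 0.22 (Gria1 and Wnt2) to 0.54 (Gria1 and Lef1) at 12 months. Among mice on arrays without the word replacement the pair of Gria1 and Glp1r had r = 0.39 and among those with it 0.74.

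The genes that followed each member most closely over the same mice differed from member to member. Nearest to Gria1 were Raver2 (r = 0.73), Fmo1 (0.73), Itga8 (0.71), Ednrb (0.71) and Adgrg6 (0.70), of which Itga8, an integrin of lung fibroblasts, is on the alveolar fibroblast list and Ednrb, an endothelin receptor, on the aerocyte list. Nearest to Glp1r were Tmem47 (0.83), Bmp3 (0.80), Acss1 (0.78), Sntb1 (0.78) and Lnx2 (0.77). Nearest to Fgfr4 were Adcy4 (0.74), Zyx (0.74), Pcdh1 (0.73), Ramp2 (0.72) and Sipa1l2 (0.72).

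Wnt2 had lower maxima, with Gyg (0.61), C1qtnf2 (0.60), Foxf2 (0.56), Myct1 (0.55) and Gimap1 (0.54). Foxf2 is a mesenchymal transcription factor and Myct1 an endothelial gene. Nearest to Lef1 were Satb1 (0.67), Grap2 (0.64), Ikzf3 (0.59), Gramd4 (0.58) and Pip5k1c (0.58). Satb1, Grap2 and Ikzf3 are genes of lymphocytes, where Satb1 organises chromatin, Grap2 is an adaptor of the T cell receptor and Ikzf3 a transcription factor.

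The deviations were also set against the mean deviation of each of the 16 marker lists, 80 relations in all. Fgfr4 followed the aerocyte list at r = 0.77 (rho 0.77), the alveolar fibroblast list at 0.75 (rho 0.74), the pericyte list at 0.71 (rho 0.68) and the capillary list at 0.71 (rho 0.68). Gria1 followed the capillary list at 0.66 (rho 0.57), the alveolar fibroblast list at 0.65 (rho 0.53) and the aerocyte list at 0.64 (rho 0.53). Glp1r was highest with alveolar fibroblasts (0.62, rho 0.51) and capillaries (0.60, rho 0.50), and Wnt2 with alveolar fibroblasts (0.58, rho 0.54) and aerocytes (0.54, rho 0.50). For each of these the adjusted permutation p was 3.08e-05 for r and 3.64e-05 for rho, adjusted over the 80 relations, which is what the smallest p of 1.00e-05 gives. Of the 80 relations 53 had an adjusted permutation p under 0.05 for r, so passing the test does not by itself set a relation apart.

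Lef1 had its highest value with T cells (r = 0.54, rho 0.51), followed by pericytes (0.51, rho 0.41) and B cells (0.50, rho 0.49), where Gria1 had r = 0.17 with T cells (rho 0.20, adjusted permutation p = 0.0723 for r and 0.0376 for rho) and 0.25 with B cells (rho 0.18). With the macrophage list Gria1 was at -0.55 (rho -0.45) and Fgfr4 at -0.44 (rho -0.43), and Wnt2 at -0.12 (rho -0.12, adjusted permutation p = 0.258 for r). Without the arrays of low correlation Fgfr4 with aerocytes was at 0.72, Lef1 with T cells at 0.48 and Gria1 with macrophages at -0.62. Without the 2 mice farthest from the median the same relations were at 0.76, 0.52 and -0.52. The values correlated here share an array and its quality, and the relations describe whole lungs and not cells.

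**Figure D4:**
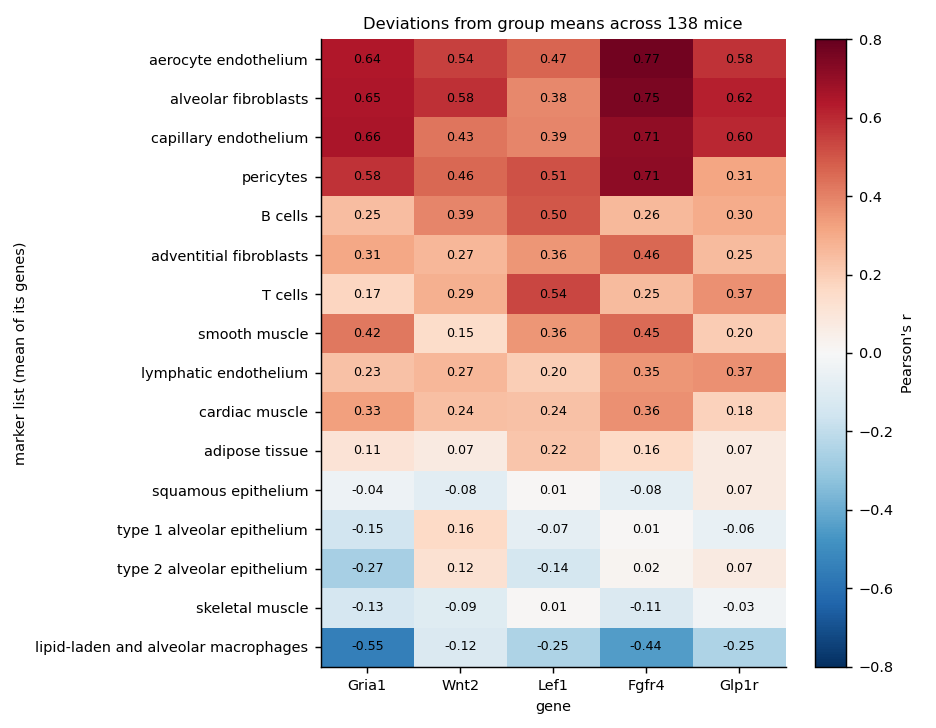
Pearson's r (colour and number) across all mice between the deviation of each gene from its group mean (columns) and the mean deviation of each marker list (rows). The highest value is 0.77 for Fgfr4 with aerocyte endothelium, Lef1 is at 0.54 with T cells, and the lowest is -0.55 for Gria1 with lipid-laden and alveolar macrophages.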

How the data were processed

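The authors deposited log2 values for 139 arrays, and per the submitters' processing notes RMA, oligo and limma were used, with neither versions nor roles stated; the scale was read from the notes and from the range of values (-0.05 to 13.276). No genome build is named for the array annotation. Of 41345 features, 23521 pair with 1 symbol, and the feature with the highest mean was kept for a gene, leaving 22180 genes. The 2 arrays of one mouse were averaged. Limma 3.58.1 (R 4.3.3) fitted 1 mean per group and, for each gene, 1 spread shared by all groups. The p-values were adjusted by Benjamini-Hochberg over all genes, with a threshold of 0.05. The genes, lists, tests and alternatives were chosen with earlier results of these data known. Genes named outside the set are, by rule, up to 3 per list among those past the test, family members, and the 5 nearest by correlation. On simulated data for crocidolite at 1 month (22180 genes, 200 changed) the fit found 49% of the 1.5-fold changes and 91% of the 2-fold changes. The simulation gave all groups the same spread and changed fewer genes than the 1277 called there. The crocidolite lungs of 1 month varied more for most of the 5 genes, so these rates do not give the power of that comparison. The number of arrays limits the precision. Correlations were tested in numpy and scipy, and figures drawn with matplotlib. The marker list relations, and the list counts and 6-month values without arrays of low correlation, were added after seeing the data.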

Additional observations from a re-analysis of the deposited data

Results flagged for a closer look

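In 6 of 90 sets of values (5 genes in 18 groups of 5 to 8 mice), 1 mouse lay far from the others of its group by Dixon's criterion, which chance meets in about 1 set in 20. Fgfr4 was at 7.69 in replicate 5 of DM at 6 months, above the next value of 7.21, in a group whose contrasts chose the genes. Fgfr4 was at 6.21 in replicate 8 of 10 µg at 6 months (next value 6.58) and at 5.68 in replicate 6 of crocidolite at 12 months (next 6.20). Glp1r was at 8.70 in replicate 8 of 40 µg at 6 months (next 9.76). Gria1 was at 5.86 in replicate 2 of 1 µg at 12 months (next 6.44). Lef1 was at 5.85 in replicate 8 of 40 µg at 1 month (next 6.25). None of these 6 is among the 5 arrays of low correlation.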

How the results depend on the processing

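No paired analysis was possible because the labels number mice and give no number shared between groups. Counts are of the 5 genes. The share of all genes called moved with the setting as well. Without arrays of low correlation, 1% of all genes were lower with crocidolite at 1 month and 3.56% at 12 months. In the main fit the shares were 2.83% and 2.16%. For the other settings the share is not given here, so a count that rises or falls is not read as a result about these genes. For crocidolite against DM at 1 month (5) the count was 3 with array weights, 2 with the compared groups fitted alone, 1 without and 1 with the title word, and 2 without arrays of low correlation, and 1 to 5 when 1 mouse was left out, with 1 without crocidolite replicate 5, 2 without crocidolite replicate 4 and 4 without DM replicate 2 or 6. For crocidolite at 12 months (1) it was 2 after quantile normalization, 3 with array weights, 2 with the word as a covariate, 0 on arrays with the word, 3 without arrays of low correlation and 2 without dim genes, and 1 to 3 when 1 mouse was left out (3 without DM replicate 2, 2 without crocidolite replicate 4). The 12-month dose trend (1) gave 3 with weights, 2 without the word, 0 with it, 3 without arrays of low correlation, and 1 to 3 leaving out 1 mouse (3 without DM replicate 2). The 1-month trend (1) gave 0 without the word. At 40 µg and 12 months (0) it was 2 with weights, 1 with the covariate, 1 without the word, 2 without arrays of low correlation, 1 without dim genes, and 0 to 1 leaving out 1 mouse (1 without DM replicate 2 or 40 µg replicate 3, 4 or 7). For 80 µg against crocidolite at 1 month (1) it was 0 with weights, in the groups alone, without the word, with it and without arrays of low correlation, and 0 to 2 leaving out 1 mouse (0 without 80 µg replicate 1, 2, 4 or 5 or crocidolite replicate 4 or 5, 2 without crocidolite replicate 2); at 12 months (1) it was 0 in the groups alone, without the word and with it, and 0 to 1 leaving out 1 mouse (0 without crocidolite replicate 2). The other comparisons kept 0 under the alternatives run. Of single values not past the test, Lef1 in 80 µg against crocidolite at 12 months was -0.033 with weights, and on arrays with the word at 12 months Glp1r (0.10) and Lef1 (0.19) with 80 µg and Lef1 (0.022) with crocidolite changed sign. Leaving out 1 mouse, Glp1r with 80 µg at 12 months ranged from -0.11 to 0.033 and Fgfr4 in 80 µg against crocidolite at 12 months from -0.0040 to 0.14; the cause was not tested.

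Gria1 with crocidolite passed at 1 month under every alternative run, and at 12 months under all but the arrays with the word. Of 64 sign changes of values that did not pass, 56 lay in 7 other comparisons, 22 of them in the change of the 80 µg difference from 1 to 12 months. At 40 µg and 12 months Glp1r reached 0.044 and Lef1 0.089. The 1 µg groups of 1 and 12 months were not left out mouse by mouse, since refits were limited to 100.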
